A study of Mus musculus with 16 samples.

Results

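The genes described here were 7 matrix metalloproteinases (Mmp8, Mmp9, Mmp12, Mmp13, Mmp14, Mmp19 and Mmp27) and 3 tissue inhibitors of metalloproteinases (Timp1, Timp2 and Timp3), taken by symbol from the 47069 genes of the deposited count table. The RNA came from bone marrow-derived macrophages (BMMs). They were grown in L929-conditioned medium from marrow of C57BL/6 mice aged 8 to 10 weeks. All BMMs were primed overnight with IFNγ (10 ng/mL) and activated for 1 hr with Salmonella LPS (100 ng/mL) and IgG-opsonized ovalbumin, an immune complex (LPS/ICs). The GSI group also received DAPT (25 μM), a γ-secretase inhibitor (GSI), and the other group the vehicle DMSO (0.01%). The labels do not say when DAPT was added. The study's methods place it overnight before activation, while legends of its other experiments give a shorter pretreatment, so the length of exposure is not settled. Each group had 2 replicates. The sources do not state whether they came from separate animals or cultures, so the spread between these libraries may be technical. The p-values rest only on that spread, and each gene's variance was moderated toward that of the other tested genes. γ-Secretase releases the intracellular domain of Notch receptors, and it also cleaves many other membrane proteins. Unstimulated samples were not analysed here, so every value describes activated macrophages with or without GSI.

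MMPs are zinc endopeptidases that cut extracellular matrix proteins and cell surface proteins. Most are secreted as inactive proenzymes whose prodomain must be removed, whereas membrane-type MMPs such as Mmp14 stay anchored at the cell surface and are activated inside the cell by furin-like convertases. TIMPs are small secreted proteins that block the active site of MMPs. Macrophages use MMPs to move through tissue, to clear matrix and to process cytokines and receptors. The mRNA levels given here are not enzyme activities.

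The 4 libraries held 42694655 to 56932059 counts. A floor of 3 counts per library equalled 0.0527 to 0.0703 CPM (counts-per-million), which covers counting error only. Of 9 rows for macrophage markers (Itgam has 2), all were tested, 7 fell and 1, Mertk, rose. Their summed level was 12275 and 12481 CPM with DMSO, against 9486 and 10411 CPM with GSI. Fibroblast markers summed to 0.124 to 0.209 CPM, and none of the 7 passed the low-count filter. Neutrophil markers summed to 0.720 to 1.43 CPM, with 2 of 11 tested and Elane, Prtn3 and Retnlg at 0 counts in every library. Of the dendritic cell markers, 4 of 5 were tested and 2 fell, with sums of 179 to 186 CPM with DMSO, against 113 to 115 CPM with GSI, nearly all of it Clec9a. Of the osteoclast markers, 3 of 4 tested changed, 2 up and 1 down, with sums of 17.8 to 18.8 CPM. The mast cell and basophil list had 1 tested gene, Kit, which rose, and the lymphocyte list had none tested. Among all tested genes, 40.8% were called, 21.9% lower and 19% higher with GSI.

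The 10 genes lie at 7 places in the mouse genome (GRCm38, the build also called mm10). Mmp13 (9: 7272514 to 7283331), Mmp12 (9: 7344381 to 7369499), Mmp8 (9: 7558456 to 7568485) and Mmp27 (9: 7571396 to 7581885) belong to a cluster of 10 MMP genes that spans 427 kb of chromosome 9. Mmp14 lies on chromosome 14 (54431612 to 54445364), Mmp19 on chromosome 10 (128790910 to 128800824), Mmp9 on chromosome 2 (164940780 to 164955850), Timp1 on chromosome X (20870166 to 20874735), Timp2 on chromosome 11 (118301069 to 118355740, minus strand) and Timp3 on chromosome 10 (86300372 to 86349506). All but Timp2 are on the plus strand, and all are protein-coding.

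Proximal promoters are shown for Mmp13, Mmp12 and Mmp14, because these 3 genes changed with GSI. Each run is the 250 bases before a RefSeq start on GRCm38.p6, plus strand, and the capitals mark matches to the motifs searched. A promoter was found for 8 of the 10 genes, and not for Mmp9 and Mmp19. Mmp12 has 2 annotated starts, of which the first is shown, and the last bases of that run lie within its first GENCODE exon.
Mmp13 (chr9:7272264-7272513): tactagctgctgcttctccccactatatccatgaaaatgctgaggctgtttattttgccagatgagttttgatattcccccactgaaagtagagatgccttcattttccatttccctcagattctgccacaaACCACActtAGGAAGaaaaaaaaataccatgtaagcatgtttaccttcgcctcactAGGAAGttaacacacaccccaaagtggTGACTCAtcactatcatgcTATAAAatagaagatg
Mmp12 (chr9:7344147-7344396): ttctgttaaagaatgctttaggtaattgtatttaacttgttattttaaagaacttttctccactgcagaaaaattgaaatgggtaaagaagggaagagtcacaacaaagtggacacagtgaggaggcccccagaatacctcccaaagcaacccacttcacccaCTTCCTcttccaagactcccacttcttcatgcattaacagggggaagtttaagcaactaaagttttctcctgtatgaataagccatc
Mmp14 (chr14:54431348-54431597): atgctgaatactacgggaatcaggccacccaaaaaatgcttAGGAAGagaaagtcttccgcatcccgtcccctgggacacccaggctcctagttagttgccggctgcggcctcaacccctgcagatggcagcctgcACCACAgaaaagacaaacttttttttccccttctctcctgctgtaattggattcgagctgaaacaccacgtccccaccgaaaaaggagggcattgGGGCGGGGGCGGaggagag

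The motifs were chosen after the changes were known and were searched on both strands. They were the AP-1 site TGANTCA, the PEA3 site AGGAAG bound by ETS factors, the RUNX core ACCACA, the TATA box TATAAA, the GC box GGGCGG, the cAMP response element TGACGTCA and the core TGGGAA of the CSL/RBP-Jκ site, through which Notch acts. Counted back from the base before the start as -1, the Mmp13 promoter held an AP-1 match at -35 to -29, PEA3 matches at -109 to -104 and -62 to -57, a RUNX match at -118 to -113 and a TATA match at -16 to -11. The Mmp14 promoter held no AP-1 or TATA match. It had adjoining GC boxes at -19 to -14 and -13 to -8, a PEA3 match at -209 to -204 and a RUNX match at -114 to -109. The first Mmp12 promoter held only a PEA3 match at -87 to -82, on the minus strand, and the second an AP-1 match at -44 to -38. The matches in these promoters did not overlap each other. Of 32807 promoters of the same length, 6.75% held the AP-1 site, 29.5% the PEA3 site, 14% the RUNX core, 12.4% the TATA box, 32.7% the GC box, 1.55% the cAMP response element and 21.6% the CSL/RBP-Jκ core. The CSL/RBP-Jκ core was matched in the Timp1 promoter alone among the 8 genes, at -158 to -153. GC content was 40.4% for Mmp13, 40% for Mmp12 and 55.2% for Mmp14, against a median of 52.4% over all promoters. A match in these windows is a description and not a binding site.

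Levels of different genes were compared as RPKM, the CPM divided by the length of the merged exons in kb. With DMSO, Mmp13 was highest at 86.2 ± 16.6 RPKM (mean ± SD, n = 2 here and below), followed by Timp2 at 25.7 ± 0.0222 RPKM. Mmp19 (5.65 RPKM), Mmp12 (5.24 RPKM) and Timp1 (3.99 RPKM) came next, and the DMSO libraries of Mmp19 (5.48 and 5.82 RPKM) and Mmp12 (4.77 and 5.70 RPKM) overlapped. Mmp14 stood at 0.885 ± 0.111 RPKM. Mmp27, Mmp8 and Mmp9 lay between 0.0817 and 0.123 RPKM, and Timp3 had 1 count in all. With GSI, Mmp13 remained first at 32.9 ± 9.20 RPKM and Timp2 next at 24.2 ± 1.90 RPKM, and their order was the same in both GSI libraries. Mmp14 reached 3.60 ± 0.0520 RPKM with GSI, beside Mmp12 at 3.81 RPKM and Timp1 at 3.54 RPKM. These 3 genes could not be ordered beyond their spread. The order depended on the length used for genes with several transcripts. With the longest transcript in place of merged exons, Mmp12 (8.47 RPKM with DMSO, 6.16 with GSI) stood above Mmp19 (5.87 and 5.59 RPKM), and with GSI Mmp14 (6.70 and 6.56 RPKM) overlapped with Mmp12 (5.72 and 6.60 RPKM).

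Of the 10 genes, 9 passed the low-count filter and entered edgeR's quasi-likelihood test, with adjustment over all 13211 tested genes. An FDR under 0.05 was reached by 3 of the 9, against 40.8% of all tested genes. Mmp14 rose (19% of all tested genes rose) and Mmp13 and Mmp12 fell (21.9% fell). Mmp14 alone also passed an absolute log2 fold change of 1.5, as did 2.91% of all tested genes (0.742% higher and 2.17% lower with GSI). The DMSO and GSI libraries did not overlap for 7 of the 9, against 70.6% of all tested genes. The median log2 fold change of the 9 genes was -0.09, and that of all tested genes was 0.01. By FDR alone, the share of MMP and TIMP genes called was thus no higher than that of all genes. Among 10957 tested genes with a mean of at least 1 CPM, 22 (0.201%) had a log2 fold change as high as that of Mmp14, and 136 (1.24%) had one as low as that of Mmp13.

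**Figure D1:**
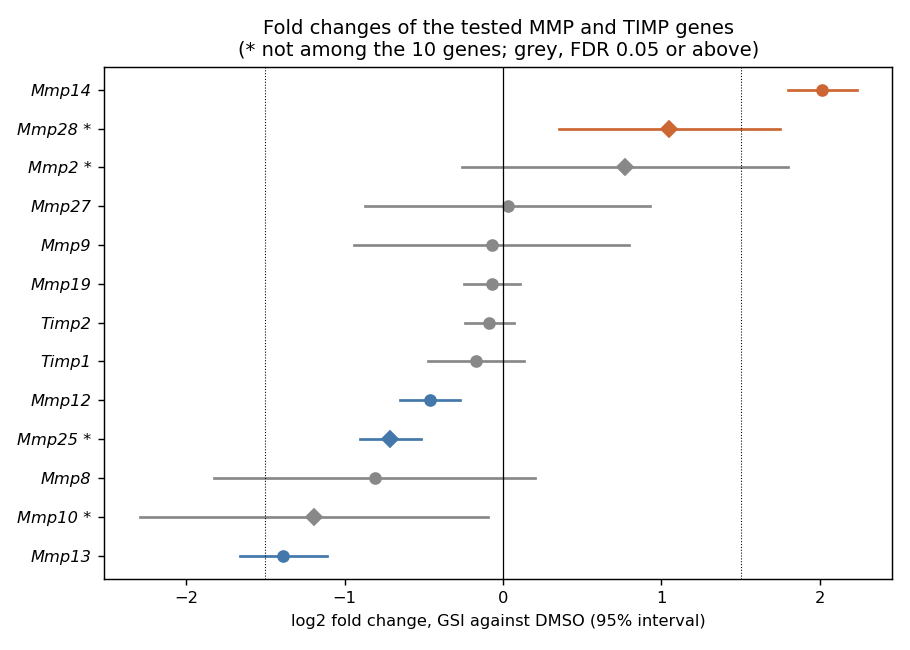
Log2 fold change, GSI against DMSO, of the 9 tested genes (circles) and of 4 other MMPs (diamonds, marked *), with 95% intervals from edgeR as lines (2 libraries per group). Orange is higher and blue lower with GSI at an FDR under 0.05, grey did not pass it, and dotted lines mark -1.5 and 1.5. The intervals of Mmp14 (1.80 to 2.23), Mmp13 (-1.66 to -1.11) and Mmp12 (-0.65 to -0.27) leave out 0, and those of the other 6 of the 9 genes include it.

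Mmp14, the membrane-type MMP that activates the proenzymes of Mmp2 and Mmp13 at the cell surface, was the member that rose. It had 207 and 326 counts in the DMSO libraries and 1049 and 1050 counts in the GSI libraries. This equalled 4.81 and 5.74 CPM with DMSO, against 21.7 and 21.3 CPM with GSI. Both GSI libraries were well above both DMSO libraries, and the GSI libraries were close to each other. The means were 5.28 ± 0.661 CPM and 21.5 ± 0.310 CPM, a 4.04-fold difference (log2 fold change 2.02, SE 0.104, 95% interval 1.80 to 2.23, FDR 1.12e-11). By p-value Mmp14 ranked 28 of 13211 genes. The 4 sequencing runs of each library gave 46 to 61 and 69 to 96 counts with DMSO, against 247 to 284 and 231 to 281 counts with GSI. Every GSI run lay above every DMSO run, but the runs of a library are not replicates and add nothing to the comparison of libraries. Relative to 1000 CPM of summed macrophage markers, Mmp14 was at 0.392 and 0.460 with DMSO and at 2.29 and 2.04 with GSI. The log2 fold change lay between 1.90 and 2.15 when any 1 library was left out. No annotated exon on the other strand overlaps Mmp14.

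Mmp13, the collagenase-3 of rodent macrophages and connective tissue cells, cuts fibrillar collagen and was the most abundant MMP in every library. It had 8563 and 14849 counts (199 and 262 CPM) with DMSO, against 3413 and 5205 counts (70.6 and 105 CPM) with GSI. Both GSI libraries were below both DMSO libraries, and in each group replicate 2 was the higher. The mean fell from 230.3 ± 44.3 CPM to 88.0 ± 24.6 CPM, 2.62-fold lower with GSI (log2 fold change -1.39, SE 0.132, 95% interval -1.66 to -1.11, FDR 5.34e-08). DESeq2 gave the same log2 fold change a larger SE (0.345), so the edgeR interval may understate the spread between the Mmp13 replicates. The log2 fold change was past -1.5 without DMSO replicate 1 (-1.57) or GSI replicate 2 (-1.71), and was -1.18 without DMSO replicate 2 and -1.13 without GSI replicate 1. The value of -1.71 lay outside the edgeR interval. The summed macrophage markers were also lower with GSI, with a DMSO mean 1.24 times the GSI mean. Per 1000 CPM of these markers, Mmp13 was at 16.2 and 20.96 with DMSO and at 7.44 and 10.1 with GSI, so the groups did not overlap on this scale either. In bulk RNA, fewer cells of a type and less RNA per cell cannot be told apart.

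Mmp12, the macrophage elastase, had 1486 and 2341 counts (34.5 and 41.2 CPM) with DMSO, against 1237 and 1459 counts (25.6 and 29.5 CPM) with GSI. The GSI libraries were both lower, and again replicate 2 was the higher in each group. The mean fell from 37.9 ± 4.75 CPM to 27.6 ± 2.80 CPM, a 1.38-fold difference (log2 fold change -0.46, SE 0.0921, 95% interval -0.65 to -0.27, FDR 0.000435). Of the 10957 genes above 1 CPM, 1312 (11.97%) had a log2 fold change as low. Per 1000 CPM of summed macrophage markers, Mmp12 was at 2.81 and 3.30 with DMSO and at 2.70 and 2.84 with GSI, and the groups overlapped. The part of the macrophage markers' lower level in the fall of Mmp12 was not tested. An annotated exon of Mmp1b shares 157 bases with Mmp12 on the other strand, but Mmp1b had no more than 1 count in any library.

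**Figure D2:**
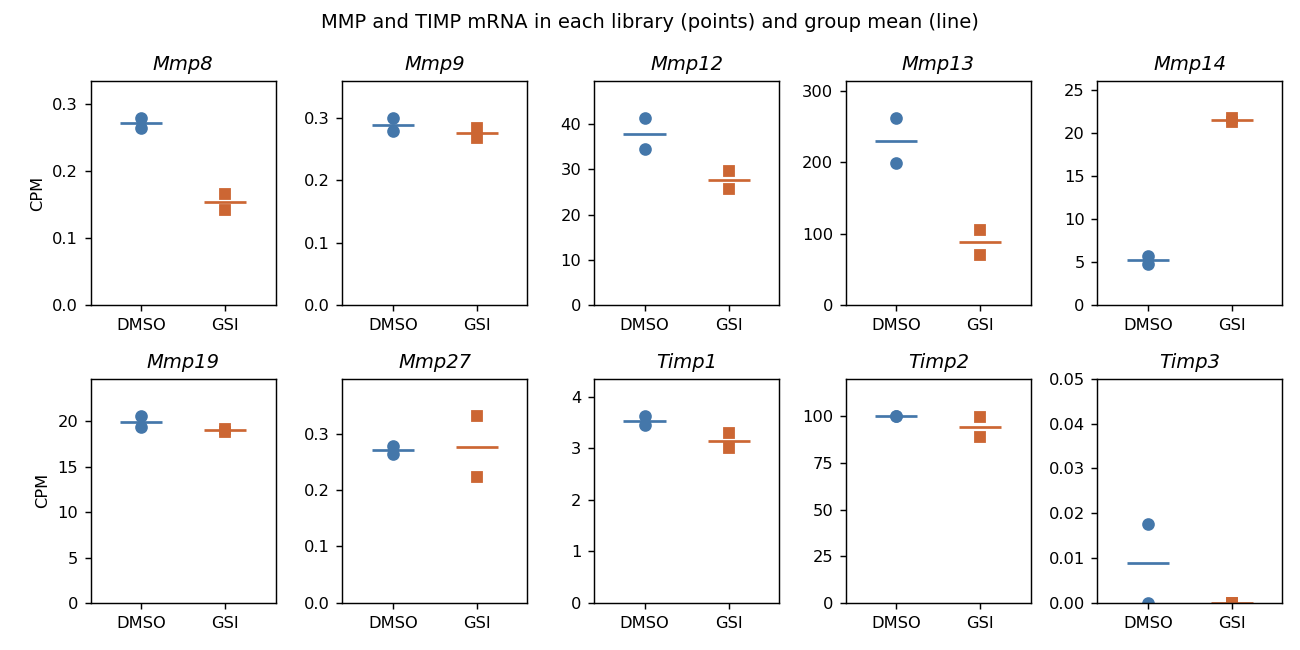
CPM of each MMP and TIMP gene in the 2 DMSO and 2 GSI libraries (points) with the group means (lines), each gene on its own y axis from 0. Mmp14 was at 4.81 and 5.74 CPM with DMSO and at 21.7 and 21.3 CPM with GSI, while Mmp13 went from 199 and 262 CPM to 70.6 and 105 CPM.

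Mmp19, an MMP that cuts basement membrane proteins, did not pass the test. It had 833 and 1168 counts (19.4 and 20.6 CPM) with DMSO, against 912 and 947 counts (18.9 and 19.2 CPM) with GSI. The log2 fold change was -0.07 (SE 0.0845, FDR 0.528), and its 95% interval of -0.25 to 0.10 leaves out changes as large as those of Mmp12, Mmp13 and Mmp14. Exons of Tmem198b and Gm47093 on the other strand cover 1001 bases of Mmp19. Tmem198b had 433, 607, 378 and 374 counts and fell (log2 fold change -0.43, FDR 0.00211). The counting setting for strand is not given in the sources used here, so the share of Mmp19 counts that came from those genes is unknown.

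Mmp8 (neutrophil collagenase), Mmp9 (gelatinase B) and Mmp27, a less studied member, were near the limit of detection. Mmp9 had 12 and 17 counts with DMSO, against 13 and 14 counts with GSI, which overlapped (log2 fold change -0.07, SE 0.416, FDR 0.907). Mmp27 had 12 and 15 counts with DMSO, against 16 and 11 counts with GSI, which also overlapped (log2 fold change 0.03, SE 0.432, FDR 0.965). Mmp8 had 12 and 15 counts with DMSO, against 8 and 7 counts with GSI, with both GSI libraries lower (log2 fold change -0.81, SE 0.486, FDR 0.193). Mmp8 passed the filter only through its DMSO libraries, since both GSI libraries were under the filter's 0.204 CPM. The 95% intervals of -1.82 to 0.20 for Mmp8, -0.94 to 0.80 for Mmp9 and -0.87 to 0.93 for Mmp27 were wide, and a change of the size of that of Mmp12 was not detectable for them at this depth.

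None of the TIMPs passed the test. Timp2, which blocks MMPs and also bridges Mmp14 and the proenzyme of Mmp2, had 4299 and 5676 counts (99.9 and 100.0 CPM) with DMSO, against 4297 and 4907 counts (88.9 and 99.3 CPM) with GSI. Both GSI libraries were lower, one of them by less than 1 CPM (log2 fold change -0.09, SE 0.0733, 95% interval -0.24 to 0.07, FDR 0.367). Timp1, which inhibits most secreted MMPs and Mmp14 only weakly, had 156 and 196 counts (3.62 and 3.45 CPM) with DMSO, against 159 and 148 counts (3.29 and 3.00 CPM) with GSI. Its GSI libraries were also both lower, without passing the test (log2 fold change -0.17, SE 0.145, 95% interval -0.47 to 0.13, FDR 0.376). Timp1 lies inside the span of Syn1 on the other strand, which had 489, 591, 417 and 385 counts, with no shared exon bases. Timp3, the matrix-bound TIMP that also inhibits Adam17, had 1 count in DMSO replicate 2 and 0 in the other libraries, so it was not tested.

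The makeup of the MMP mRNA differed between the groups. The summed level of the 7 MMPs was 85.8 and 110.7 RPKM with DMSO, against 39.2 and 52.7 RPKM with GSI, while the 3 TIMPs summed to 29.7 and 29.6 RPKM with DMSO, against 26.5 and 28.9 RPKM with GSI. The ratio of MMP to TIMP sums was 2.89 and 3.74 with DMSO, against 1.48 and 1.83 with GSI, and the groups did not overlap. These ratios were formed after the changes were known and were not tested. They follow Mmp13, the largest part of the MMP sum, and do not describe the MMPs as a class. Mmp14 rose, and Mmp19 did not pass the test. The sum of the 7 MMPs leaves out Mmp25, which was at 6.26 RPKM with DMSO and 3.83 RPKM with GSI. Mmp13 made up 86.7% and 88.4% of this MMP sum with DMSO, against 67.3% and 74.8% with GSI. Mmp14 made up 0.940% and 0.871% with DMSO, against 9.28% and 6.76% with GSI. The ratio of Mmp13 to Mmp14 in RPKM was thus 92.2 and 101.6 with DMSO, against 7.25 and 11.1 with GSI. These values depended on the length used. With the longest transcript, the ratio of Mmp13 to Mmp14 was 50.1 and 55.2 with DMSO, against 3.94 and 6.00 with GSI, and Mmp14 made up 1.66% and 1.54% of the MMP sum with DMSO, against 14.99% and 11.2% with GSI. On both lengths Mmp13 exceeded Mmp14 in every library, and the MMP to TIMP ratio moved little (1.61 and 1.94 with GSI for the longest transcript). Timp2 was 86.0% to 88.3% of the TIMP sum in all 4 libraries.

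**Figure D3:**
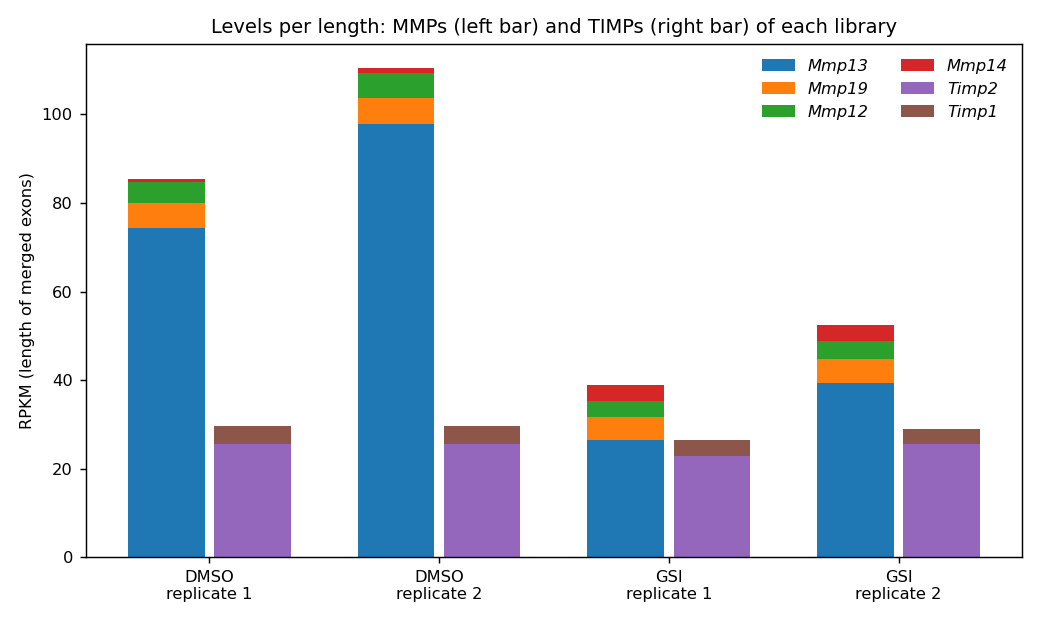
Summed RPKM (y axis, per length of merged exons) of the MMPs (left bar) and TIMPs (right bar) in each of the 2 DMSO and 2 GSI libraries, with a colour for each of the 6 genes that are not near the limit of detection. The MMP bars stood near 85.8 and 110.7 RPKM with DMSO and near 39.2 and 52.7 RPKM with GSI, the TIMP bars at 26.5 to 29.7 RPKM.

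Of the 17 further MMP and TIMP genes looked up, 4 passed the filter. Mmp25, a leukocyte MMP held at the membrane by a lipid anchor, had 1301 and 2052 counts (30.2 and 36.2 CPM) with DMSO, against 933 and 1054 counts (19.3 and 21.3 CPM) with GSI. It fell (log2 fold change -0.71, SE 0.0920, FDR 3.24e-06), so the membrane-bound Mmp14 and Mmp25 moved in opposite directions. Mmp28 (epilysin) rose from 12 and 21 counts to 34 and 33 counts (log2 fold change 1.05, SE 0.334, FDR 0.0162), and 466 of its exon bases are shared with 1700020L24Rik on the other strand. The call of Mmp28 was lost with DESeq2 (adjusted p 0.14), without DMSO replicate 1 (log2 fold change 0.88, FDR 0.118) and without GSI replicate 1 (1.01, FDR 0.0667). Mmp2 (gelatinase A), whose proenzyme Mmp14 activates, had 9 and 7 counts with DMSO, against 15 and 12 counts with GSI (log2 fold change 0.77, FDR 0.224). Mmp10 (stromelysin-2) had 11 and 15 counts with DMSO, against 5 and 6 counts with GSI (log2 fold change -1.19, FDR 0.0766). The filter's 0.204 CPM was met by both GSI libraries and 1 DMSO library of Mmp2, and by the DMSO libraries alone of Mmp10. The other 13 were not tested, the highest count among them being 18 for Mmp24 in DMSO replicate 2. Within the chromosome 9 cluster, Mmp12 and Mmp13 held 99.4% to 99.7% of the counts, and the other 8 genes reached at most 16 counts in a library.

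Genes that activate, bind or restrain MMPs were looked up as a further list. Of 18 listed, 13 were tested, 5 fell and 1 rose, while 40.8% of all tested genes were called, 21.9% lower and 19% higher with GSI. Their median log2 fold change was -0.32, against 0.01 for all tested genes. Plat, the tissue plasminogen activator, fell from 345 and 330 counts to 79 and 58 counts (log2 fold change -2.29, FDR 5.27e-09). Lrp1, a scavenger receptor that takes up MMPs and their complexes, fell from 532 and 530 CPM to 204 and 222 CPM (log2 fold change -1.32, FDR 3.25e-11). Plaur, the receptor of urokinase, and Cd44, a docking protein of Mmp14 and Mmp9, also fell. Lcn2, a partner of Mmp9, rose from 6 and 21 counts to 44 and 51 counts, though its mean was under 1 CPM and it was named after its values were seen. The filter's 0.204 CPM was met by both GSI libraries of Lcn2 and by 1 of its DMSO libraries. Furin, the convertase of Mmp14, did not pass the test (log2 fold change -0.07, FDR 0.465), nor did Bsg, an inducer of MMPs (0.11, FDR 0.202), or Reck, a membrane inhibitor of Mmp14 that had 20, 25, 20 and 8 counts (FDR 0.225). These 3 genes were also named after their values were seen.

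Among related metalloproteinases, 9 of 12 were tested, 5 fell and the other 4 did not pass the test (median log2 fold change -0.49), while 40.8% of all tested genes were called and 21.9% fell. Adam8 fell from 551 and 609 CPM to 240 and 277 CPM (log2 fold change -1.17, FDR 7.36e-10), Adam10 fell by 0.66 and Adamts10 by 0.49 on the log2 scale. Adam17, the TNF sheddase, did not pass the test (log2 fold change -0.07, FDR 0.455), and was named after its values were seen. Of 18 matrix and cell surface substrates, 8 were tested, 4 fell and 2 rose (median -0.26), against the same background of 40.8% called. Thbs1 (thrombospondin-1) fell by 2.23 and Lamc1 (a laminin chain) by 0.53, whereas Col4a2 (a chain of basement membrane collagen) rose by 0.70 on the log2 scale. Fibrillar collagens Col1a1, Col1a2 and Col3a1, the substrates of Mmp13, had at most 1 count in any library.

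Transcription factors known to act on MMP promoters were measured in the same libraries. Of 19 listed, 18 were tested, 9 fell and 1 rose (median log2 fold change -0.19), against 40.8% of all tested genes called, 21.9% lower and 19% higher. The AP-1 subunits Fosb and Fosl2 fell by 2.21 (FDR 2.34e-13) and 1.46 (FDR 2.48e-11) on the log2 scale. Fosb was at 134 and 145 CPM with DMSO and at 27.1 and 33.0 CPM with GSI. Ets1, which binds PEA3 sites, fell by 1.42 (FDR 4.19e-07). The AP-1 subunits Jun (log2 fold change 0.10, FDR 0.365) and Junb (-0.14, FDR 0.154) did not pass the test, and Jund was the factor that rose. Runx2, which binds the RUNX core, fell by 0.61 (FDR 0.00167). Jun, Junb, Jund and Runx2 were named after their values were seen. Whether any of these factors acts on the MMP genes was not tested.

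**Figure D4:**
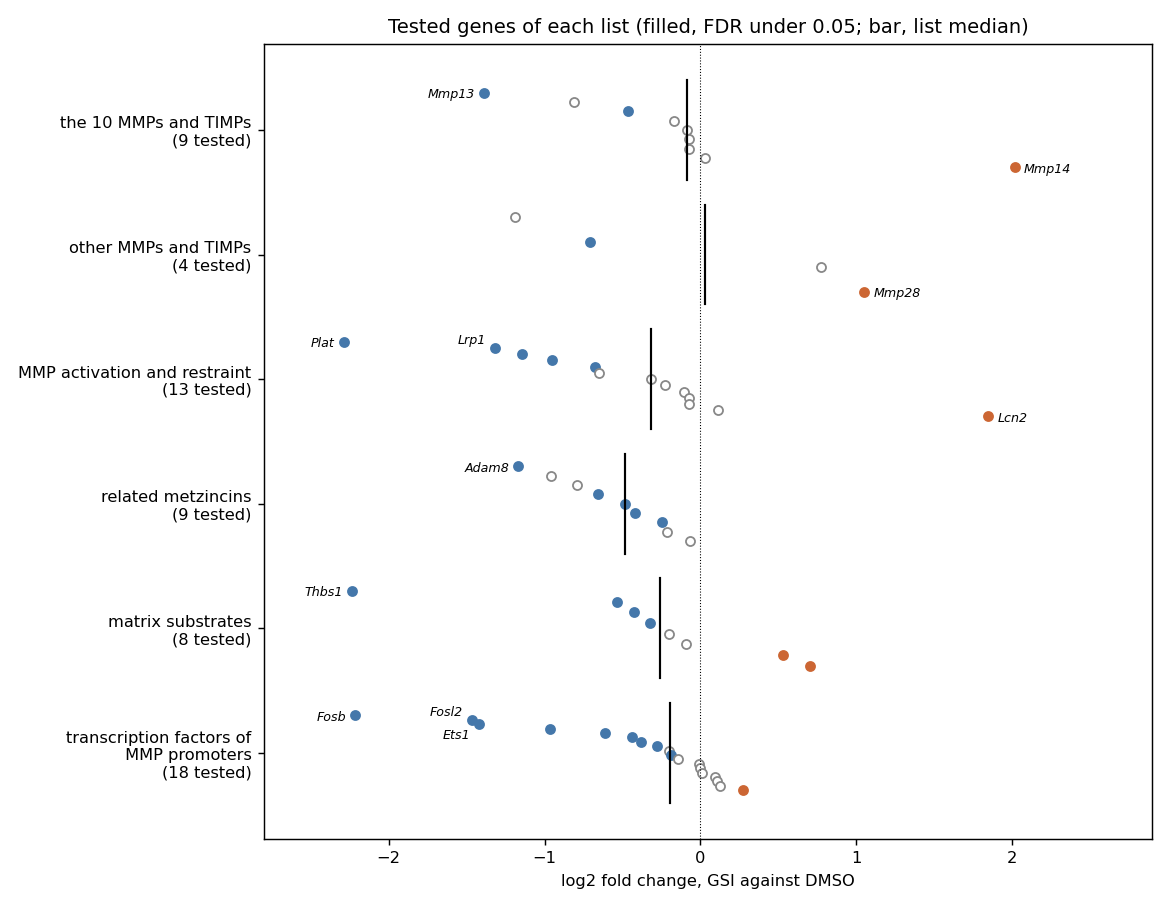
Log2 fold change, GSI against DMSO, of each tested gene in the MMP and TIMP set and in 5 lists of related genes. Points are genes, filled where the FDR was under 0.05 (orange higher, blue lower with GSI), and the vertical bar is the list median. Called genes of the related lists lay mostly below 0, whereas Mmp14 lay at 2.02.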

How the data were processed

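Poly(A) RNA of BMMs was made into stranded libraries and sequenced on an Illumina NextSeq system. The authors trimmed reads with Trimmomatic, aligned them with STAR (2.5.0a in the submitters' processing notes, which list mm9 and mm10; the methods name mm10) and assigned them to genes with HTSeq. The deposited table holds raw counts, without normalization. The strand setting and HTSeq mode are not given in the sources used here. The 16 columns were matched by title, and the 4 runs of each replicate, which differed by no more than sampling noise (chi-square per degree of freedom 1.01 to 1.03, 0 genes with an FDR under 0.05 and 5.06% to 5.58% with an unadjusted p under 0.05), were summed to 4 libraries.

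Genes were tested by quasi-likelihood in edgeR 4.0.16 (R 4.3.3), with filterByExpr, TMM factors and group as the only term, 2-sided, with Benjamini-Hochberg adjustment over 13211 genes. Standard errors are the log2 fold change divided by the square root of F, and 95% intervals use the t quantile. CPM values use TMM-scaled totals. Positions and exon lengths came from GENCODE M21 on GRCm38, which held 46574 of the 47069 gene IDs (98.9%), and promoters from RefSeq on GRCm38.p6. The test was checked on simulated data.

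The genes and lists were chosen with earlier results of these data known. The genes named were all 10 members, every other MMP or TIMP that passed the filter, and the 3 largest changes of each related list with an FDR under 0.05 and a mean of at least 1 CPM, and exceptions are marked. One item that this rule gives is not reported here. Alternatives were each library left out in turn, glmTreat with a 1.5-fold minimum, DESeq2 1.42.0, other count filters, RLE factors or none, a replicate block and a fit over the 16 runs. A fit on genes free of opposite-strand exons was added after seeing the data.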

Additional observations from a re-analysis of the deposited data

How the results depend on the processing

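The rise of Mmp14 (log2 fold change 1.90 to 2.15, highest FDR 8.12e-10) and the fall of Mmp13 (-1.71 to -1.13, highest FDR 0.000354) kept their direction and their call under all 13 alternatives. The number of genes past both thresholds among the 10 was 1 to 2 when 1 library was left out. It was 2 without DMSO replicate 1 or without GSI replicate 2, where Mmp13 joined Mmp14. Here the lone library was assumed to vary like the other group. Mmp12 kept its direction (-0.58 to -0.33) and lost its call under glmTreat against 1.5-fold (-0.46, FDR 1), which asks for a larger change. Timp2 passed the threshold when each of the 16 runs was a sample of its own (-0.084, FDR 0.0305), which counts runs as replicates. Mmp27, at 11 to 16 counts, turned its sign without DMSO replicate 2 (-0.02) and without GSI replicate 1 (-0.28), in a leave-one-out range of -0.28 to 0.29. The other 107 of 111 fitted log2 fold changes of the 9 genes kept direction and side of the threshold.

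Over all genes, 5392 had an FDR under 0.05, against 4222 with DESeq2, 839 with glmTreat and 3571 among genes free of opposite-strand exons, a fit of fewer genes that was chosen after seeing the data. With 16 runs, the count by FDR alone rose to 7582. The 385 genes past both thresholds became 154 with at least 10 counts in every library, 178 with 16 runs and 179 without opposite-strand exons. In the other direction, they became 556 with no low-count filter. The 2 called genes among the other MMPs and TIMPs became 1 with DESeq2, where Mmp28 lost its call, 1 with 16 runs and 1 without opposite-strand exons, where Mmp28 was not tested, and 0 with glmTreat, where Mmp25 (FDR 0.318) and Mmp28 (FDR 0.323) were not called. With glmTreat, calls went from 5 to 1 for the related metalloproteinases, from 6 to 1 for the substrates and from 10 to 4 for the transcription factors. The metalloproteinases had 3 without opposite-strand exons. The groups share replicate numbers, but the correlation of same-numbered deviations was 0.155 over all tested genes and 0.244 over the 8040 genes above 8 CPM, and only 2 pairs exist, so the numbers are not shown to pair. With the replicate block, 6444 genes had an FDR under 0.05, 389 passed both thresholds, and the calls among the 10 genes stayed at 3 and 1. At this depth of 42694655 to 56932059 counts, precision was limited for Mmp8, Mmp9, Mmp27 and Timp3, which had at most 17 counts in a library.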

Other observations

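Mmp13 had a higher ratio of replicate 2 to replicate 1 than most genes. Replicate 2 exceeded replicate 1 by 1.32 times with DMSO and by 1.49 times with GSI. Of the 13211 tested genes, 5.95% had a higher ratio with DMSO, 2.77% with GSI and 0.901% in both. Genes that differed as much in the other direction were not counted, so this does not rank variation between replicates. The same ratios were 1.19 and 1.15 for Mmp12, 1.19 and 0.980 for Mmp14, and 1.00 and 1.12 for Timp2. This pattern was noticed in the data and was not tested.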
